A study of Mus musculus with 104 samples.

Results

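A pair of small interfering RNAs (siRNAs) against the mouse gene Hao1 was compared at 1 dose: the parent D1 and D2, which carries a single glycol nucleic acid nucleotide (GNA-C) at position 5 of the guide strand. All libraries labelled with either siRNA at 50 nM were taken, 4 for D1 and 4 for D2, so that 8 libraries entered the direct comparison, out of a series with 4 libraries for each of 6 siRNAs at 4 doses and 8 mock libraries. The cells were primary mouse hepatocytes (PMH), liver cells cultured from the animal and not a cell line, transfected by a lipid reagent and harvested after 24 h. D1 and D2 are both GalNAc-conjugated duplexes, chemically modified in full with 2′-F and 2′-OMe, share the guide sequence and differ in the labels only by the GNA nucleotide. The 8 mock libraries, transfected without siRNA, and the libraries of D1 and D2 at 10, 1 and 0.1 nM served as reference. The labels do not say whether libraries of a group came from separate cultures or animals, so p-values measure the spread between these libraries, which may be technical.

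An siRNA guide strand, once loaded into an Argonaute protein, finds mRNAs through base pairing, and its seed, positions 2 to 8 (g2 to g8), can pair with many transcripts other than the intended one. Such short matches act in the way of microRNA target sites and lower the mRNA. GNA is an acyclic nucleic acid analogue with a 3-carbon backbone unit, and placed in the seed it weakens seed pairing. Hao1 encodes glycolate oxidase, a peroxisomal liver enzyme.

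The guide and its Hao1 site are shown first because every match described here is to these bases. Capitals mark the seed in the guide and the bases opposite to it in the site, and the site is written as the mRNA reads, 5′ to 3′.
Guide of D1 and D2: uUGUCGAUgacuuucacauucug
Hao1 site: cagaatgtgaaagtcATCGACAa
The site (GRCm39, chr2:134340220-134340242, minus strand) lies in coding sequence in exon 8 of Hao1 (ENSMUSG00000027261). A 3′-UTR was searched on the mRNA strand for ATCGACA, the complement of g2 to g8 (a mer7m8 site), for the same letters followed by an A opposite g1 (a mer8 site), for TCGACAA (g2 to g7 and the A, a mer7A1 site) and for TCGACA alone (mer6), and a gene was counted under its strongest site. ATCGACA was found in the longest annotated 3′-UTR of 327 of 20896 genes (1.56%), and in 193 of the 10516 tested genes that have one (1.84%). The following 30-base stretches show mer8 sites in the 3′-UTR of genes that were lower with D1, in each case with the match in capitals and the 8 positions opposite g1 to g8 given in GRCm39.
Camk2n1, chr4:138184236-138184243, plus strand: cctgcgatgaaATCGACAActtgtgtctca
Rnf115, chr3:96697516-96697523, plus strand: ggtggaattgtATCGACAAccaaatgcctc
Ube4b, chr4:149412899-149412906, minus strand: ttcccaacacaATCGACAAtaaacggtgat
Cog2, chr8:125278482-125278489, plus strand: ggtaaaagtaaATCGACAAgtgtggctggt
Elovl6, chr3:129427188-129427195, plus strand: cacgaaaaataATCGACAAaagaaaaatgg
Next are mer7m8 sites in the 3′-UTR of genes with large decreases.
Actg1, chr11:120236667-120236674, minus strand: ggaacgtttgcATCGACAcctgtaaatgta
Maea, chr5:33529803-33529810, plus strand: ccccagcctgcATCGACAtttgtttcttgc
Gda, chr19:21372003-21372010, minus strand: catgcttctagATCGACAttgtctatggac
Matches of the same kind in coding sequence are shown for the most strongly lowered gene, for a gene of microRNA processing and for the gene with the longest seed-anchored match among those called.
Cdh17, chr4:11783201-11783208, plus strand: tgtactttcaaATCGACAgcaaaacagggg
Drosha, chr15:12926097-12926104, plus strand: cagcgctgtacATCGACAAggacctggaat
Atp5pf, chr16:84624859-84624866, minus strand: aatttgaagtcATCGACAAaccccagtcct
The last one is a mer8 site in the 3′-UTR of a gene whose level was not called different.
Pafah1b1, chr11:74564935-74564942, minus strand: tcaccgaagatATCGACAAaattttaaaaa

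The libraries of D1 at 50 nM held 4089171, 4364479, 3623954 and 5691251 counts on genes, and those of D2 held 4966618, 4886949, 5204604 and 4551841. The mitochondrial share of counts was 3.04% to 3.71% and the number of genes detected 16111 to 17340, and D1 replicate 4, the deepest library, had the highest value of both. Hepatocyte markers were present in the cultures. The 10 markers listed (most abundant Alb, 14850 CPM, that is, reads scaled to the same library total) summed to between 18230 and 21090 CPM with D1 and between 18730 and 20860 CPM with D2. Of 12 Kupffer cell and macrophage markers, 8 were at 0 counts in all 8 libraries (Clec4f, Marco, Vsig4, C1qa, C1qb, C1qc, Timd4 and Tyrobp), and 4 of 12 sinusoidal endothelial markers were at 0 (Kdr, Clec4g, Fcgr2b and Gpr182). The most abundant macrophage marker was Cd68, at 23.56 CPM, and 11 of the 12 were under 1 CPM. Among the endothelial markers, Stab1 was the most abundant, at 8 CPM, and 9 of the 12 were under 1 CPM. Of 12 stellate cell and fibroblast markers, 10 were under 1 CPM, and Ecm1, at 320.6 CPM, gave most of their sum. The 10 cholangiocyte markers summed to between 276 and 321.3 CPM with D1, above 233.9 to 254.9 CPM with D2 and 215.4 to 237.8 CPM in mock, with Krt19 the most abundant (140.1 CPM) and none at 0.

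Hao1, the intended target, was silenced by both siRNAs. With D1 at 50 nM the 4 libraries held 7, 2, 19 and 10 Hao1 reads, and with D2 they held 11, 5, 10 and 8, against 117 to 205 in mock. On the log2 CPM scale (TMM normalized, prior count 2) this was 1.06, −0.19, 2.47 and 1.11 for D1 and 1.40, 0.53, 1.24 and 1.13 for D2. The groups overlapped, and the highest and the lowest of the 8 values both belonged to D1. The edgeR filter on low counts removed Hao1 from the direct comparison, so the value without that filter is given: D1 minus D2 was 0.29 on the log2 scale (standard error 0.43, 95% interval −0.55 to 1.14, adjusted p = 0.75). Without D1 replicate 3 the sign changed, to −0.41. Differences in silencing up to about these bounds were not detectable at this depth. Genes with more reads gave narrower intervals. Gapdh, a glycolytic enzyme often used as reference, differed by −0.01 (95% interval −0.12 to 0.11), and F12, coagulation factor XII, by 0.03 (−0.13 to 0.18). Ttr, the plasma carrier transthyretin, was at 9.99, 9.98, 9.95 and 10.08 log2 CPM with D1 and at 9.67, 9.73, 9.73 and 9.68 with D2, so that every D1 library lay above every D2 library (log2 fold change 0.31, adjusted p = 0.000177). Both siRNAs were above mock for Ttr (9.08 to 9.49), by 0.63 with D1 and 0.33 with D2. Gapdh was lower than mock with both (−0.17 and −0.16), each of these 4 values having an adjusted p under 0.05. F12 was above mock by 0.23 with D1 (adjusted p = 0.013) and 0.21 with D2 (adjusted p = 0.0598).

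**Figure D1:**
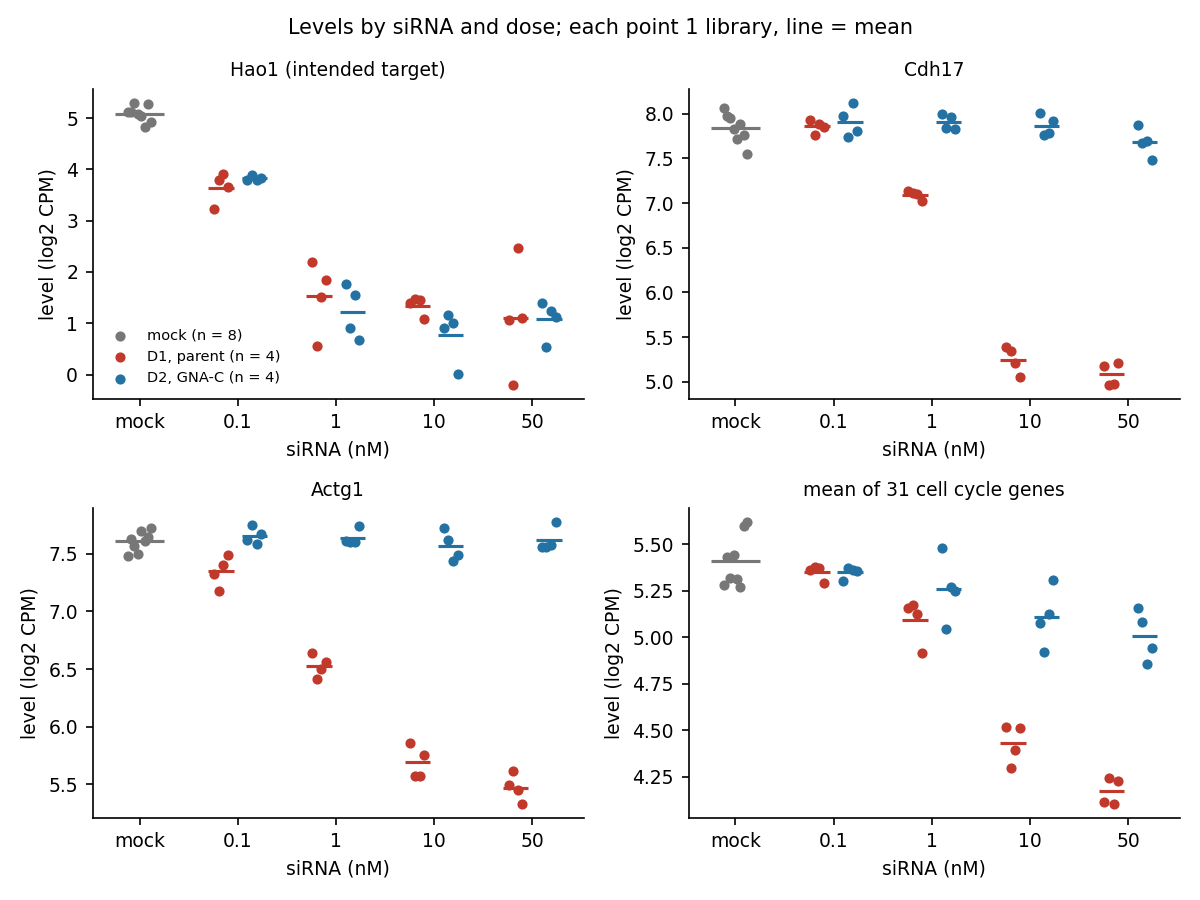
Levels in log2 CPM (y axes) of Hao1, Cdh17, Actg1 and the mean of 31 cell cycle genes in mock and by siRNA dose in nM (x axes), 1 point per library with the group mean as a line. Hao1 fell with both siRNAs, to overlapping levels at 50 nM, while Cdh17 and Actg1 were lower with D1 than with D2 at 1, 10 and 50 nM and stayed near mock with D2.

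Across all genes, D1 and D2 differed widely at 50 nM. Of 11033 genes tested, 1549 (14.0%) were called different, which throughout means an adjusted p of less than 0.05 by the quasi-likelihood test of edgeR with Benjamini-Hochberg adjustment. With D1, 914 genes (8.28%) were lower than with D2 and 635 (5.76%) were higher. Most differences were small: the median fold was 1.39 among the lower and 1.29 among the higher genes, and 125 lower and 39 higher genes differed by at least 2-fold. The 4 libraries of D1 and the 4 of D2 did not overlap for 1902 genes (17.2%), of which D1 was lower for 1127 (10.2%) and higher for 775 (7.02%). DESeq2 called 1206 genes, 1170 of them also called by edgeR.

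Levels in mock gave a reference for the direction of these differences. Against mock, 2914 of 11251 genes (25.9%) were called for D1, 14.2% lower and 11.7% higher, and 681 of 11279 (6.04%) for D2, 2.96% lower and 3.08% higher. The 914 genes lower with D1 than with D2 had a median log2 fold change against mock of −0.44 with D1 and 0.01 with D2. Of these genes, 742 were called lower than mock with D1 and 82 with D2, and 58 were called higher than mock with D2. The 635 higher genes had medians of 0.33 with D1 and −0.05 with D2, and 442 of them were called higher than mock with D1. A smaller number, 64, were called lower than mock with D2. These 3 comparisons share libraries, and their values are set side by side as a description.

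**Figure D2:**
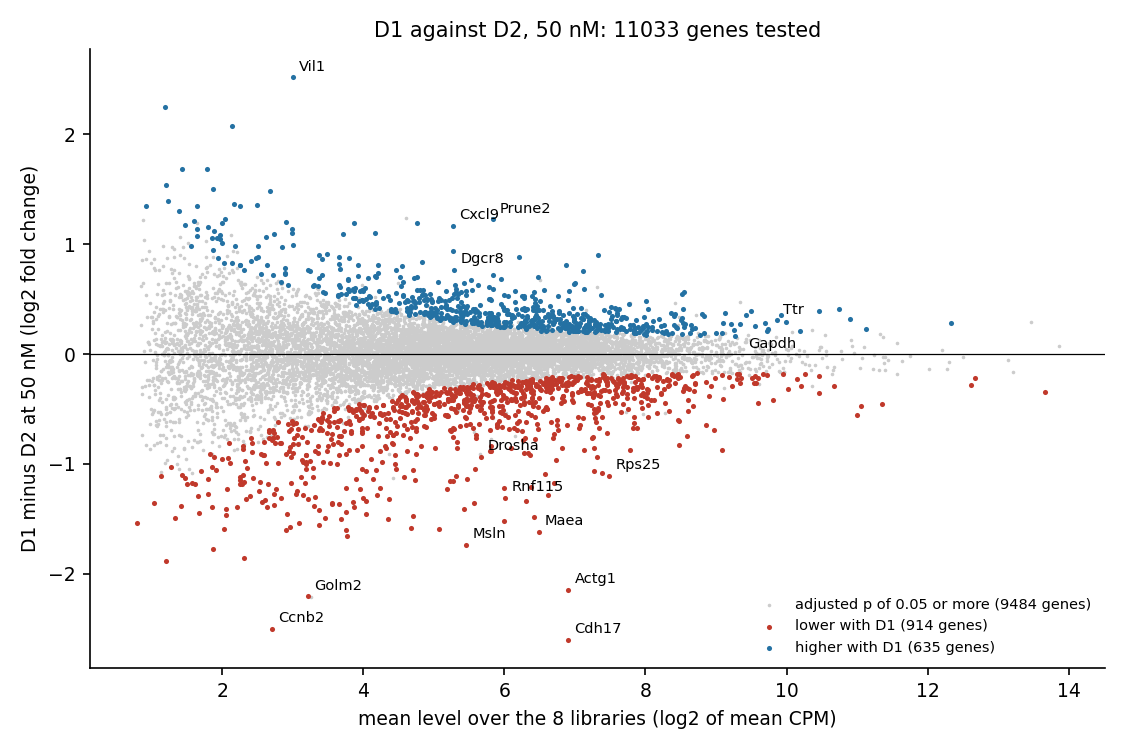
Difference between D1 and D2 at 50 nM (log2 fold change, y axis) against the mean level over the 8 libraries (log2 of mean CPM, x axis) for 11033 genes, 1 point per gene. Red points are the 914 genes lower with D1 and blue points the 635 genes higher with D1, and Cdh17, Ccnb2, Golm2 and Actg1 lie lowest among the labelled genes.

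Cdh17, Ccnb2, Golm2 and Actg1 were among the genes with the largest decreases. Cdh17, a cadherin of epithelial cells, was at 5.18, 4.97, 4.97 and 5.21 log2 CPM with D1 and at 7.87, 7.68, 7.70 and 7.48 with D2. The lowest D2 library was thus above the highest D1 library, and D2 lay close to mock (7.55 to 8.07). The difference was 6.06-fold (log2 fold change −2.60, standard error 0.09, adjusted p = 2.93e-20). Cdh17 has no site in its 3′-UTR and the coding-sequence match shown above. Actg1, cytoplasmic gamma-actin, was at 5.49, 5.62, 5.45 and 5.33 log2 CPM with D1, at 7.56, 7.56, 7.57 and 7.77 with D2 and between 7.48 and 7.72 in mock. D2 stayed within or just above the mock range, and D1 was 4.42-fold lower (log2 fold change −2.14, standard error 0.08, adjusted p = 1.6e-19). Actin genes have close relatives in the genome, among which counting may be uncertain.

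Ccnb2, the mitotic cyclin B2, was at 0.46, 1.56, 0.81 and 1.60 log2 CPM with D1 against 3.58, 3.34, 3.60 and 3.58 with D2 (log2 fold change −2.50, adjusted p = 2.69e-08). Golm2, a Golgi membrane protein, was at 1.82, 2.04, 1.63 and 1.96 with D1 and at 4.06, 3.89, 3.57 and 4.30 with D2 (−2.21, adjusted p = 6.67e-09). Neither has a seed match in the 3′-UTR or the coding sequence, and both were at low levels with D1. Each has an 11-base stretch complementary to the guide in its coding sequence, opposite g8 to g18 in Ccnb2 and g6 to g16 in Golm2. Maea, a subunit of the CTLH ubiquitin ligase with a mer7m8 site, was at 5.71, 5.32, 5.34 and 5.46 log2 CPM with D1 and at 7.08, 7.09, 7.02 and 7.16 with D2, 3.07-fold lower (adjusted p = 2.18e-15). The rest of the 12 largest decreases among protein-coding genes with a mean of at least 5 CPM were Msln (mesothelin), the chromokinesin Kif4, Prr11, the mitotic ubiquitin-conjugating enzyme Ube2c, the collagen receptor subunit Itga2, the nuclear lamina protein Lmnb1 and the kinetochore scaffold Knl1, with log2 fold changes of −1.73 to −1.57. Actg1 and Maea had a seed site in the 3′-UTR and Cdh17 in the coding sequence, and the other 9 of the 12 had neither. The annotation places another gene on the opposite strand over part of several of them (Tnnc2 over Ube2c, Pdzd11 over Kif4), and the strand setting of the counting is not given in the sources used here.

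The largest increase was in Vil1, the actin-bundling protein villin of epithelial brush borders. It was at 3.96, 3.86, 3.65 and 3.75 log2 CPM with D1, at 1.87, 1.18, 1.35 and 1.40 with D2 and between 0.97 and 2.58 in mock. D1 was above both, by 5.73-fold over D2 (log2 fold change 2.52, standard error 0.23, adjusted p = 1.31e-09). Usp37 overlaps Vil1 on the opposite strand. The chemokine gene Cxcl9 was at 5.83, 5.81, 5.62 and 5.72 log2 CPM with D1 and at 4.53, 4.5, 4.43 and 4.91 with D2, against 3.87 to 4.72 in mock (log2 fold change 1.17, adjusted p = 1.77e-09). Prune2 was at 6.60, 6.34, 6.32 and 6.03 log2 CPM with D1 and at 5.27, 5.01, 5.08 and 5.13 with D2 (1.23, adjusted p = 1.28e-09), and it carries a mer6 site in the 3′-UTR and a mer7m8 match in the coding sequence. The other 9 of the 12 largest increases were H4c9, Il18rap, Lce6a, Dpysl3, Ptprn, Apobr, the clock gene Per2, the chemokine gene Ccl7 and Elmod1, with log2 fold changes of 1.09 to 1.48. H4c9 is one of many near-identical histone H4 genes, and its counts are uncertain.

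**Figure D3:**
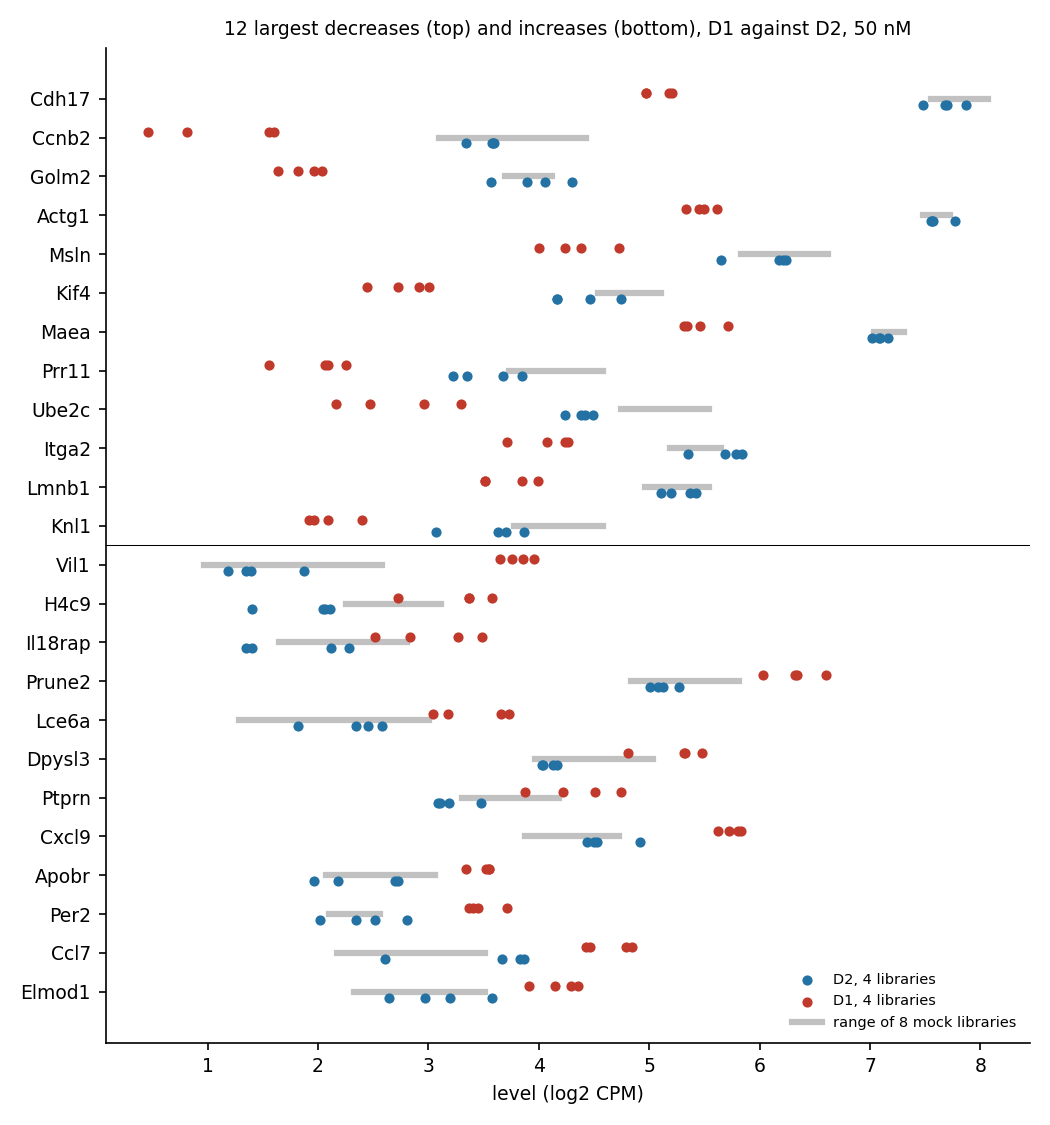
Levels in log2 CPM (x axis) of the 12 genes with the largest decreases and the 12 with the largest increases (y axis), with the 4 D1 libraries in red, the 4 D2 libraries in blue and the range of the 8 mock libraries in grey. The D1 points of Cdh17 lie between 4.97 and 5.21 and the D2 points between 7.48 and 7.87, and no gene shown has overlapping groups, as the choice of these genes required.

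Among called genes with a seed site in the 3′-UTR, most were lower with D1. Of 39 tested mer8 genes, 14 were called lower and 0 higher, with a median log2 fold change of −0.20. Of 154 mer7m8 genes, 48 were lower and 4 higher (median −0.18). The medians of genes with shorter sites were nearer 0, with 19 lower (18.3%) and 7 higher mer7A1 genes (median −0.06) and 65 lower and 23 higher of 413 mer6 genes (median −0.05). The 9806 genes with none of these sites had 755 lower, 586 higher and a median of 0.01, and all genes tested had a median of 0.01. Against mock, the medians of the mer8 and mer7m8 genes were −0.21 and −0.15 with D1 and 0.01 and 0.01 with D2. With D2, 4 of 41 mer8 genes were nevertheless called lower than mock and 0 higher, which is 9.76% against 2.96% of all genes, and of 157 mer7m8 genes 2 were lower and 3 higher. A difference of this kind between the 2 siRNAs had been seen in these libraries when the lists were chosen, so the counts describe it and are not independent of it.

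Genes with a match in coding sequence were also mostly lower among those called. Among genes without a 3′-UTR site, 210 had a mer8 match in the coding sequence, of which 53 were lower and 1 higher (median −0.13). A mer7m8 match there was held by 454 genes, of which 86 were lower and 15 higher (median −0.09). The 9142 genes with a match in neither place had 616 lower and 570 higher, with a median of 0.02. A 7- or 8-base match in the 3′-UTR was present in 8.99% of the 901 lower genes that have a 3′-UTR, in 1.77% of the 620 higher genes and in 2.82% of all 10516 tested genes with one. Adding matches in the coding sequence brought these shares to 25.4%, 4.68% and 9.49%. Most of the lower genes thus had no such match. Among 16376 7-mers found in the 3′-UTR of at least 20 tested genes, ATCGACA had the lowest mean log2 fold change (−0.28 over 193 genes), followed by AATCGAC (−0.18, 114 genes) and TCGACAC (−0.18, 186 genes), both of which overlap it. Genes with ATCNACA in the 3′-UTR, with a base other than G at N, opposite the GNA position, and no seed match numbered 2826, with 184 lower, 207 higher and a median of 0.03.

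**Figure D4:**
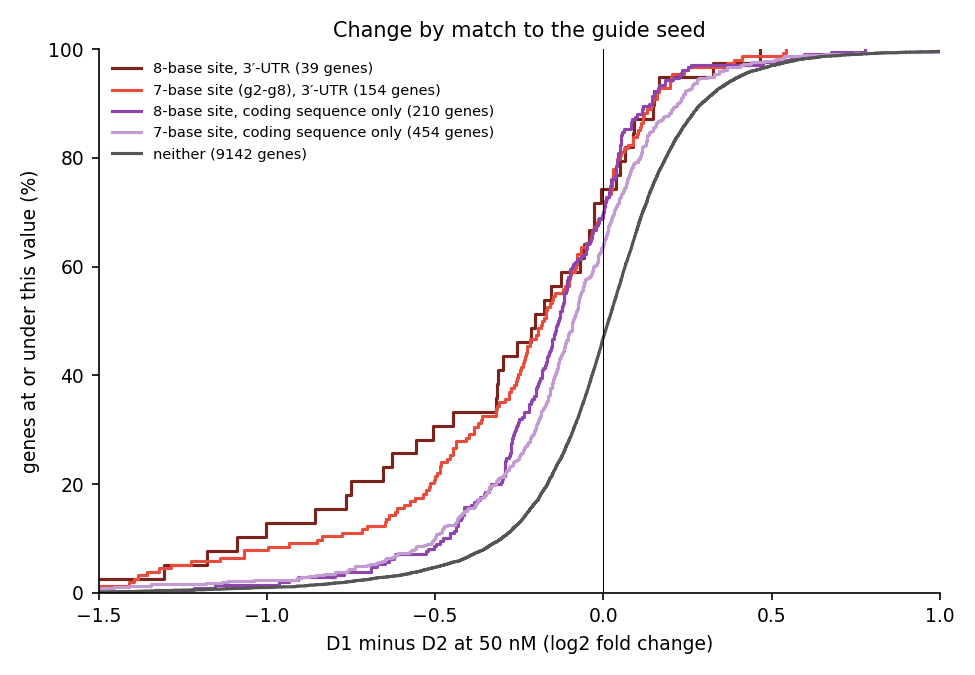
Share of genes (%, y axis) at or under each log2 fold change of D1 minus D2 at 50 nM (x axis, cropped to −1.5 to 1.0), by the strongest match to the seed. The curves of genes with a site in the 3′-UTR (39 and 154 genes) and in the coding sequence alone (210 and 454 genes) lie to the left of the curve of 9142 genes with neither.

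The single genes with sites ranged widely. Camk2n1, an inhibitor of the kinase CaMKII, was at 1.22, 1.18, 1.5 and 1.42 log2 CPM with D1 and at 3.22, 3.18, 2.89 and 2.77 with D2, 3.62-fold lower (adjusted p = 8.46e-06). Rnf115, a ubiquitin ligase, was at 5.16, 5.12, 5.45 and 5.17 with D1 and at 6.53, 6.43, 6.58 and 6.58 with D2 (log2 fold change −1.31, standard error 0.09, adjusted p = 2.07e-12). Ube4b, another enzyme of ubiquitin chain formation, was at 5.93, 6.05, 5.88 and 5.86 with D1 and at 6.90, 7.03, 7.11 and 7.06 with D2 (−1.09, adjusted p = 2.46e-12). In each of these, D1 and D2 libraries were apart by more than the range of either group, and D2 of Ube4b and Camk2n1 fell largely within the mock range. For Rnf115 all 4 D2 libraries lay below the lowest mock library (6.66). Cog2, a subunit of the Golgi tethering complex COG, differed by −1.0 on the log2 scale, and the fatty acid elongase Elovl6 by −0.63. Xk (−0.56) and Zbtb10 (−0.51, adjusted p = 0.0306, not called in 7 of 15 other settings) were also among the 8 mer8 genes with the largest decrease. Cog2 overlaps Agt, an abundant liver gene, on the opposite strand.

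The mer7m8 genes with the largest decrease were Actg1, Maea, the synaptic adhesion protein Clstn1 (−1.41), the guanine deaminase Gda (−1.40) and the replication factor C subunit Rfc5 (−1.38). A site did not go with a large difference in the most abundant mer8 genes. Tubb5, a beta-tubulin, was at 9.95, 9.91, 9.85 and 9.68 log2 CPM with D1 and at 10.16, 10.18, 10.06 and 10.31 with D2 (log2 fold change −0.32, adjusted p = 0.00081). Apoa1, the main protein of high-density lipoprotein, differed by −0.15 (95% interval −0.29 to −0.02, adjusted p = 0.118), and Pafah1b1, a dynein regulator, by −0.03 (−0.16 to 0.10, adjusted p = 0.822). The Tubb5, Apoa1 and Xk sites lie in the 3′-UTR of 1 annotated transcript and in the coding sequence of another.

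Genes were also grouped by the longest stretch complementary to the guide anywhere in a transcript. Against 8.28% lower among all genes, the share of lower genes was 6.94% at a run of 7 bases, 9.13% at 8, 9.89% at 9 and 10.3% at 10 (56 lower and 35 higher of 543), while the medians of the log2 fold change stayed at 0.01 or nearer to 0. At 11 bases, 17.3% were lower (32 lower and 17 higher of 185, median −0.015). Ccnb2 and Golm2 were among these 32 lower genes. At 12 bases there were 4 lower and 1 higher of 30 (median −0.03), and of 15 genes with a run of 13 or more, 2 were lower and 0 higher. The last 2 were Rif1, a DNA repair and replication-timing factor, with 15 bases opposite g4 to g18 in its coding sequence (log2 fold change −1.05, standard error 0.10, adjusted p = 2.16e-09), and Atp5pf, a subunit of ATP synthase, with 13 bases opposite g1 to g13 (−0.62, adjusted p = 2.94e-06). Rif1 was singled out after its value was seen. Osbpl10, with 13 bases opposite g2 to g14 in its coding sequence, differed by −0.14 (adjusted p = 0.747).

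Most of the listed cell cycle genes were lower with D1. Of 31 listed genes, all tested, 25 were lower and 0 higher, against 8.28% and 5.76% of all genes, and the median log2 fold change was −0.69. These shares of all genes are the background for the counts of every other list too. The mean of the list was 4.11, 4.24, 4.10 and 4.23 log2 CPM in the D1 libraries, 5.16, 5.08, 4.85 and 4.94 in the D2 libraries and 5.27 to 5.62 in mock. The 3 groups did not overlap, D2 being lower than mock and D1 lower than D2. Against mock, 30 of the 31 genes were called lower with D1 (median −1.21) and 19 with D2 (median −0.39). Ccna2, cyclin A2, was at 3.66, 3.58, 3.98 and 4.01 log2 CPM with D1 and at 5.44, 5.40, 5.00 and 5.25 with D2 (2.78-fold lower, adjusted p = 1.25e-09). The proliferation marker Mki67 was at 5.59, 5.78, 5.37 and 5.82 with D1 and at 7.09, 7.02, 6.68 and 6.68 with D2 (2.32-fold lower, adjusted p = 2.01e-08). Top2a, the mitotic kinase Plk1, the checkpoint genes Bub1 and Cdc20 and the nucleotide reductase subunit Rrm2 followed, with log2 fold changes of −1.44 to −1.11. Genes of replication origin licensing were lower by less (Mcm5 −0.64, Mcm2 −0.47, Mcm3 −0.39, Mcm7 −0.35 and Mcm6 −0.33). In these bulk libraries, fewer cycling cells and less RNA per cell cannot be told apart. The libraries with the lower cell cycle mean were also those with the higher cholangiocyte marker sum, and the part of the cell mixture in the result was not tested.

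Several genes of cholesterol synthesis were lower with D1. Of 25 listed genes, all tested, 9 were lower (36.0%, against 8.28% of all genes) and 1 higher (median −0.23), and without D1 replicate 2, the highest D1 library of this list, 14 were lower. The list means overlapped, at 6.97 to 7.22 log2 CPM with D1 and 7.12 to 7.39 with D2. Against mock, the list median was −0.12 with D1 (9 lower, 0 higher) and 0.14 with D2 (1 lower, 5 higher). The median difference between the siRNAs thus held a level above mock with D2 as well as one below mock with D1. At 10 nM, 4 genes of the list were lower and 1 higher with D1 than with D2. Srebf2, the transcription factor of the pathway, was at 6.93, 7.21, 7.07 and 6.83 log2 CPM with D1 and at 7.37, 7.67, 7.58 and 7.57 with D2 (log2 fold change −0.52, adjusted p = 1.73e-05). Insig1, which retains the SREBP complex in the endoplasmic reticulum, had a log2 fold change of −0.63 and squalene epoxidase Sqle one of −0.39. Sqle has a mer7m8 match in the coding sequence. Msmo1, a sterol methyl oxidase of the same pathway, went the other way. It was at 8.66, 8.95, 8.69 and 8.72 with D1, at 8.09, 8.16, 8.21 and 8.42 with D2 and at 8.72 to 9.03 in mock (D1 minus D2 0.54, adjusted p = 2.06e-06). Both siRNAs were called lower than mock for Msmo1, D2 by more (−0.71) than D1 (−0.18, adjusted p = 0.0256).

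Of 20 genes of fatty acid and triglyceride synthesis, 7 were lower (35.0%, against 8.28% of all genes), among them Elovl6, Fads2 (−0.42), Elovl5 (−0.35) and the desaturase Scd1 (−0.29), and Me1 was higher (0.25), with a list median of −0.12. Elovl6 has the mer8 site shown above and Fads2 a mer7m8 match in the coding sequence. Against mock, the list median was −0.03 with D1 (6 lower, 1 higher) and 0.09 with D2 (2 lower, 1 higher). Fatty acid oxidation genes had 1 lower (Plin2 −0.42) and 2 higher, among them Ehhadh (0.71), of 19 tested, against 8.28% and 5.76% of all genes. For bile acid synthesis and transport, 2 of 11 were lower (Acox2 −0.45, and Abcc2, the canalicular exporter, −0.29) and 1 was higher (Slco1a1 0.72, not called in 6 of 15 other settings).

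Among the 22 genes of small RNA processing and siRNA uptake, 4 were lower and 3 higher (median −0.01). Drosha, the nuclear RNase of microRNA processing, was at 5.14, 5.15, 5.15 and 5.11 log2 CPM with D1 and at 6.12, 6.0, 5.91 and 6.24 with D2 (log2 fold change −0.93, standard error 0.09, adjusted p = 7.49e-09). Its partner Dgcr8 moved the opposite way, with 5.71, 5.36, 5.59 and 5.80 with D1 and 5.06, 4.91, 4.84 and 4.68 with D2 (0.77, adjusted p = 4.94e-06). D2 lay within or near the mock range for both genes. Ago2, the slicing Argonaute, was at 8.41, 8.47, 8.36 and 8.25 with D1 and at 8.81, 8.80, 8.88 and 8.72 with D2 (−0.42, adjusted p = 9.92e-06), with mock between at 8.54 to 8.69. The decapping enzyme Dcp2 (−0.58) and the exporter Xpo5 (−0.24) were also lower. Asgr1 and Asgr2, the subunits of the receptor that binds GalNAc, were higher (0.79, adjusted p = 0.0252, and 0.81, adjusted p = 0.000287), the call of Asgr1 being lost in 8 of 15 other settings.

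Stress and inflammation genes were split. Of 23 acute phase and NF-kB genes, 5 were higher (21.7%, against 5.76% of all genes) and 0 lower (median 0.04). The chemokine gene Ccl2 was at 8.67, 8.88, 8.85 and 8.79 log2 CPM with D1, at 8.08, 8.23, 8.32 and 8.35 with D2 and at 7.78 to 7.98 in mock (D1 minus D2 0.56, adjusted p = 1.5e-07). Tnfaip3 (0.53), Icam1 (0.56), Saa2 (0.41) and Ccl7 were the others, and of the same list 12 genes were called higher than mock with D1 and 5 with D2 (11.7% and 3.08% of all genes). Of 30 genes of the unfolded protein and integrated stress response, the chaperones Calr (0.41), Hsp90b1 (0.39) and Hspa5 (0.32), Pdia4 (0.27) and Creld2 (0.52) were higher and the serine synthesis enzyme Phgdh was lower (−0.57). Of 37 interferon response genes, 1 was lower (Eif2ak2, −0.32, adjusted p = 0.015, not called in 4 of 15 other settings) and 0 were higher. These counts rested on single libraries, with 5 lower without D1 replicate 3 and 2 higher without D1 replicate 4, and ranged from 0 to 5 lower and 0 to 2 higher over all settings tried. The list mean ran from 4.55 to 6.12 log2 CPM in the D1 libraries and from 5.16 to 5.85 in the D2 libraries, with an SD of 0.65 among D1 libraries against 0.14 or less for the other pathway lists, and no difference of the list between the siRNAs was detectable at this spread.

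Of 24 p53 targets, 4 were lower and 2 higher. Ei24, an autophagy-related protein of the endoplasmic reticulum with a mer6 site, was at 5.37, 5.60, 5.48 and 5.54 log2 CPM with D1 and at 7.08, 7.05, 6.90 and 6.89 with D2 (log2 fold change −1.48, adjusted p = 5.31e-15), and Phlda3, with a mer7m8 site, differed by −1.32. Mdm2 (−0.34) and Btg2 (−0.33) were the other lower members, and Sesn2 (0.29) and Pmaip1 (1.06) the higher ones, neither of them called by DESeq2. Of 22 NRF2 targets, Gsr, Abcc4 and Nfe2l2 itself were lower (−0.47, −0.50 and −0.21) and Gclc was higher (0.28). Abcc4 has a mer7m8 site in the 3′-UTR. Nfe2l2 (adjusted p = 0.0389) was not called in 9 of 15 other settings. The number of lower NRF2 targets rested on single libraries, with 8 called without D1 replicate 2 and 6 without D2 replicate 1. Of 40 genes of the cytoskeleton, matrix and hepatocyte dedifferentiation, 12 were lower, among them Actg1, Itga2 and Ankrd1 (−0.65), and 5 were higher, among them Tmsb4x (0.64) and Krt19 (0.59). Krt19 is a cholangiocyte marker too, and 2 of the 7 tested markers of these cells were called higher, the other being Epcam (0.73, adjusted p = 0.0411). The Epcam call was lost in 12 of 15 other settings and its libraries overlapped. The part of such cells in these values was not tested.

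Most lists of hepatocyte functions had called members in both directions, against 8.28% lower and 5.76% higher of all genes. Of 42 secreted plasma proteins, 5 were lower (11.9%) and 6 higher (14.3%, median 0.05), with the fibrinogen chains apart: Fgb was lower (−0.47) and Fgg higher (0.35). Ahsg, which has a mer8 match in its coding sequence, was lower with D1 than with D2 (−0.35). Against mock, Ahsg was called higher with both siRNAs (0.58 with D1 and 0.93 with D2). Of 31 cytochrome P450 and xenobiotic genes, 2 were lower (Cyp3a13 −0.38 and Cyp2f2 −0.42) and 5 higher (16.1%), among them Cyp2c29 (0.42), Cyp2e1 (0.57) and Ces1d (0.57). Of 30 tested against mock, 13 were higher and 2 lower with D1 (43.3% and 6.67%), and 5 were higher and 1 lower with D2 (16.7% and 3.33%). Cyp2c genes form a family of similar sequences in which counting is uncertain. Of 25 hepatocyte transcription factors, 5 were lower, among them Hnf4a (−0.40), Nfib (−0.42) and Rxra (−0.26), and Per1 was higher (0.37). Of 15 tested genes of glyoxylate and glycine metabolism, the pathway of Hao1, Pipox (0.88) and Hoga1 (0.48) were higher and 0 were lower. Of 19 glucose genes, Igfbp1, an insulin-repressed secreted protein, was lower (−0.88) and 3 were higher (15.8%), Irs2 (0.57), Gbe1 (0.30) and Pfkl (0.28, adjusted p = 0.0401, not called in 9 of 15 other settings). The urea cycle and amino acid list had 3 lower (Mat1a −0.45, Ass1 −0.27 and Fah −0.26, the last not called in 7 of 15 other settings) and 1 higher (Otc 0.87) of 24. Of 31 lysosome and autophagy genes, 2 were lower, the protease Ctsb (−0.45) and Atp6v0d1 (−0.39), and 6 were higher (19.4%), among them Lipa (0.34) and Lamp2 (0.28). Ctsb and Mat1a have a seed site in the 3′-UTR (mer7m8 and mer8), and Atp6v0d1 and Rxra have a mer8 match in the coding sequence. Several of these list counts rested on single libraries. Without D2 replicate 2, 3 lysosome and autophagy genes were higher. Without D1 replicate 2, 4 cytochrome P450 and xenobiotic genes were lower, and 3 were higher with the second sequencing run alone. Without D1 replicate 1 or 3, 3 hepatocyte transcription factors were lower, and without D1 replicate 4, 1 gene of the urea cycle and amino acid list was.

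Of 80 cytosolic ribosomal proteins, 5 were lower (6.25%, near the 8.28% of all genes, and 3 without D1 replicate 3) and 0 higher, with a list median of 0.03. Rps25 was at 6.76, 6.83, 6.76 and 6.95 log2 CPM with D1 and at 7.93, 7.89, 7.80 and 8.14 with D2 (2.15-fold lower, adjusted p = 6.76e-13), and Rpl5 differed by −0.67, Rpl7l1 by −0.28, Rpl10a by −0.24 and Rpl3 by −0.19. Of 87 nuclear-encoded respiratory chain genes, 4 were lower (4.6%) and 0 higher (median 0.03). Ndufv1, a complex I subunit, was at 5.01, 5.49, 4.79 and 4.82 with D1 and at 6.52, 6.62, 6.44 and 6.71 with D2 (2.88-fold lower, adjusted p = 2.52e-09), and Atp5pf, Atp5mc2 (−0.45) and Sdha (−0.35) were the others. Rps25 and Ndufv1 have no seed match, and Atp5pf, Sdha and Rpl10a have one in the coding sequence. Atp5mc2 has a mer7m8 match that lies in the coding sequence of 1 annotated transcript and in the 3′-UTR of another. Ribosomal protein genes have many processed pseudogenes, among which counting is uncertain. Of 7 tested mitochondrially encoded genes, 0 were called by edgeR and 0 by DESeq2, and 0 had an unadjusted p under 0.05 in edgeR.

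**Figure D5:**
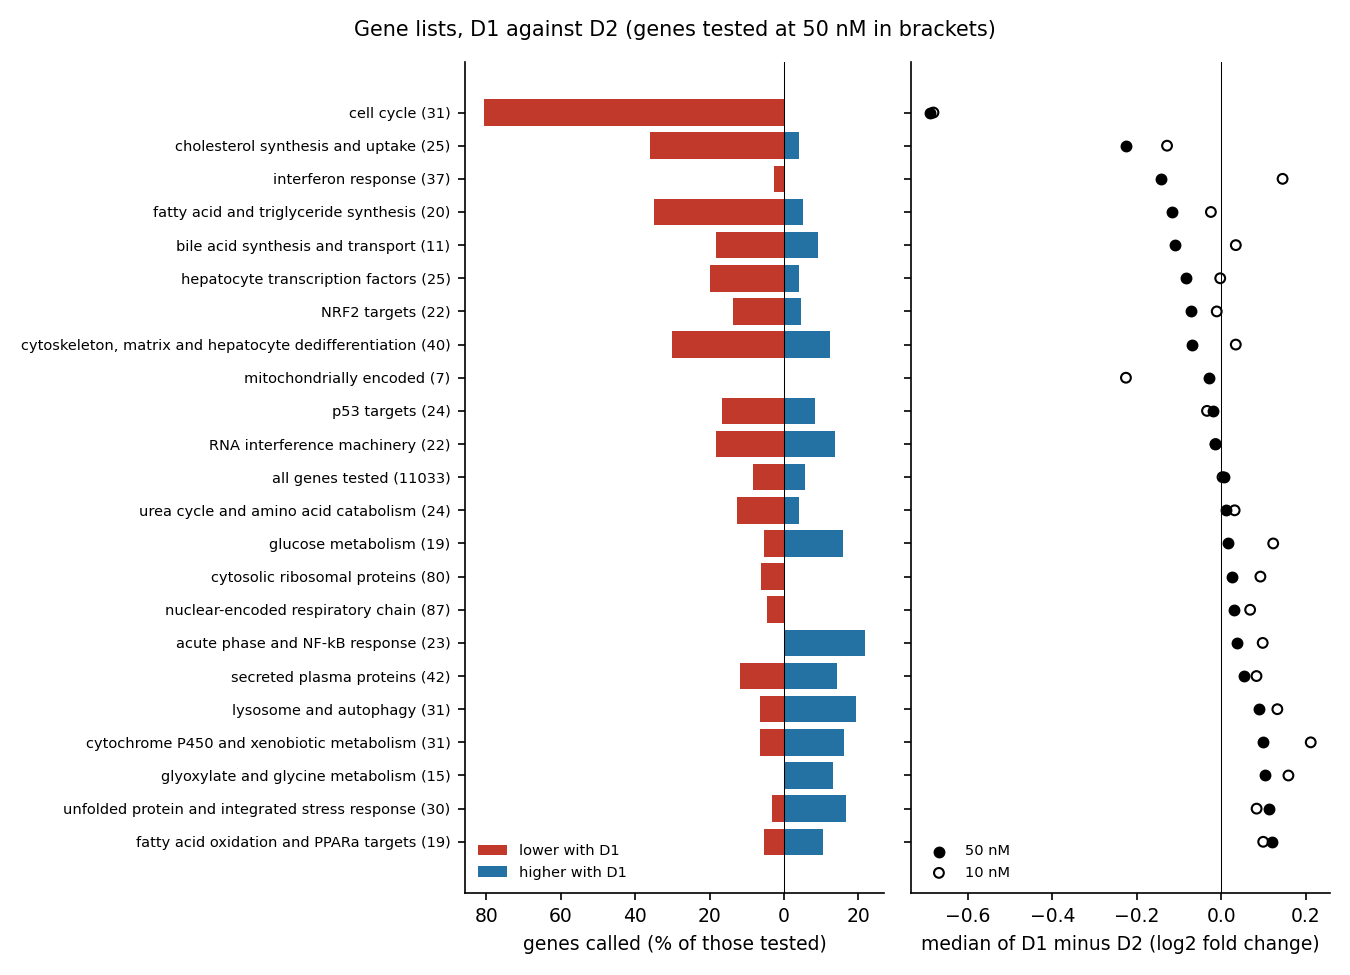
Gene lists (y axis, number tested in brackets) with the share of tested genes called lower (red) or higher (blue) with D1 than D2 at 50 nM (%, left) and the median log2 fold change at 50 and 10 nM (right). Cell cycle genes stand at a median of −0.69 at 50 nM and −0.68 at 10 nM, and all genes tested near 0.

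The same comparison at the lower doses used other libraries. At 10 nM, 1184 of 11116 genes were called (10.7%), 704 lower (6.33%) and 480 higher (4.32%) with D1. Of the 914 genes lower at 50 nM, 912 were tested at 10 nM. There 893 had the same sign (97.9%, against 49.6% of all genes tested), 539 were called lower and 0 were called higher. The 539 are 59.0% of the genes lower at 50 nM and 76.6% of those lower at 10 nM. Of the 635 higher genes, 634 were tested, and 606 had the same sign (95.6%, against 50.4% of all genes tested). At 10 nM, 264 of them were called higher and 0 lower. The 264 are 41.6% of the 50 nM list and 55.0% of the 10 nM list. The median difference of the lower genes was −0.47 at 50 nM and −0.36 at 10 nM, the genes having been chosen at 50 nM. At 10 nM the cell cycle list again had 23 lower and 0 higher genes. A test of whether the difference between the siRNAs changed from 10 to 50 nM called 0 of 11428 genes (0.0%, edgeR, with 439 at an unadjusted p under 0.05).

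At 1 nM, 51 of 11100 genes were called (0.459%), 33 lower (0.297%) and 18 higher (0.162%) with D1. The number rested on single libraries, with 24 called without D1 replicate 1 and 107 without D2 replicate 1. Of the 33, 32 were also called lower at 50 nM, 12 had a mer8 or mer7m8 site in the 3′-UTR and 5 had a match in the coding sequence alone. Of the 18, 13 were also called higher at 50 nM, 0 had such a 3′-UTR site and 1 had a match in the coding sequence alone. For comparison, 1.84% of the genes with a 3′-UTR tested at 50 nM had a mer8 or mer7m8 site there. A coding-sequence match without a 7- or 8-base match in the 3′-UTR was held by 6.67% of them. Actg1 (−1.11), Golm2 (−1.02), Gda (−0.93), Camk2n1 (−0.92), Ccnb2 (−0.84) and Cdh17 (−0.82) had the largest decreases. Gm45250 (1.305, not called at 50 nM), Prune2 (0.96) and Prss23 (0.89) had the largest increases. Cdh17 was at 7.03 to 7.14 log2 CPM with D1 and at 7.83 to 8.0 with D2 at this dose. Hao1 was already at 0.55 to 2.20 log2 CPM with D1 and at 0.67 to 1.77 with D2 there, overlapping the levels at 50 nM. At 0.1 nM, 0 of 11064 genes were called by edgeR (0.0%) and 0 by DESeq2, while 382 had an unadjusted p under 0.05 and 4 were called without D2 replicate 3. Hao1 stood at 3.22 to 3.91 log2 CPM with D1 and at 3.80 to 3.90 with D2 at that dose.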

How the data were processed

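Per the labels and the study's methods, the authors filtered reads with fastq-mcf, mapped them with STAR (build GRCm39) and obtained counts of uniquely mapped reads with featureCounts (2.0.2 in the submitters' processing notes). The deposited counts are not normalized and come as 2 sequencing runs per library. The authors' tables of comparisons with mock hold their own fold changes and p-values and were not used.

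The runs were summed, since they differed by no more than counting error (a chi-square per degree of freedom of 0.990 to 1.04 in the 8 libraries), and 92 ERCC spike-in rows were dropped. Pairs of replicates differed by more than that noise (at least 2.15). The test was a robust quasi-likelihood fit in edgeR 4.0.16 (R 4.3.3; TMM, filterByExpr) on the 2 groups compared, with Benjamini-Hochberg adjustment over all genes tested. The alternatives were DESeq2 1.42.0 (betaPrior TRUE), RLE size factors, no filter, each run alone, all libraries of the series in 1 fit, a replicate block and each library left out. On simulated counts for D1 against D2 at 50 nM (11033 genes), 70.7% of genes changed by 1.5-fold and 92.9% of those changed by 2-fold were recovered, with 9 false among 170 calls. Sites came from GENCODE transcripts on GRCm39, which named 54749 of the 55416 genes.

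The comparison and the gene lists were chosen with earlier results of these data known. Named genes are Hao1, Ttr, F12 and Gapdh, the 12 largest decreases and increases among called protein-coding genes with a mean of at least 5 CPM and no overlap of libraries, the 8 mer8 and 5 mer7m8 genes with the largest decrease among called genes without overlap, up to 4 called genes of each list with the smallest adjusted p, and the 3 most abundant mer8 genes. Other list members, and the genes named at 1 nM, were named after their values were seen. A few named genes are not reported here. Same-numbered libraries of D1 and D2 are not stated to share a culture or day.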

Additional observations from a re-analysis of the deposited data

Results flagged for a closer look

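In 21 of the 292 groups of 4 libraries checked (7.19%, where chance flags about 1 in 20), 1 library lay far from the other 3, by a gap that is a large share of the group's range (Dixon's ratio of gap to range, above its 95% critical value). In the D2 group at 50 nM these were Ccnb2 (replicate 2 low, ratio 0.934), Actg1 (replicate 4 high, 0.926), Msln (replicate 4 low, 0.897), H4c9 (replicate 1 low, 0.915), Ccl7 (replicate 1 low, 0.838), Xk (replicate 4 low, 0.868), Fgg and Lipa (replicate 3 high, 0.847 and 0.886) and the mean of the sinusoidal endothelial markers (replicate 1 low, 0.883). In the D1 group at 50 nM they were Apobr, Slco1a1 and Rpl10a (replicate 3 low, 0.852, 0.883 and 0.861), Rnf115, Ehhadh and Ankrd1 (replicate 3 high, 0.855, 0.868 and 0.852), Zbtb10 and Atp5mc2 (replicate 4 low, 0.860 and 0.906), Rpl7l1 (replicate 2 low, 0.974), and the means of the cholesterol list (replicate 2 high, 0.855), the fatty acid oxidation list (replicate 4 high, 0.972) and the mitochondrially encoded list (replicate 4 high, 0.947). Rnf115 with D1 was at 5.45 log2 CPM in replicate 3 against 5.12 to 5.17 in the other 3, still below all D2 libraries. Ccl7 with D2 was at 2.61 log2 CPM in replicate 1 against 3.66 to 3.87 in the other 3.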

How the results depend on the processing

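The direct comparison at 50 nM gave 1206 calls with DESeq2, 1550 with RLE size factors, 1528 without the filter, 1110 and 1065 from each run alone and 1694 with all libraries of the series in 1 fit, against 1549. Leaving out 1 library gave 1156 to 1538. The number of higher genes, 635, was 416 with run 2 alone, with fewer reads than in both runs. At 1 nM, 51 calls became 95 without the filter and 24 to 107 when 1 library was left out (24 without D1 replicate 1, 29 and 31 without D2 replicates 3 and 4, 107 without D2 replicate 1), and at 0.1 nM, 0 became 5 without the filter and 0 to 4 with 1 library left out. The cause was not tested.

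The Hao1 difference ran from −0.41 (without D1 replicate 3) to 0.63 (without D1 replicate 2). Gapdh and F12 lay near 0 and changed sign. F12 was at −0.0275 with run 2 alone and from −0.0168 to 0.0600 with 1 library left out, and Gapdh at 0.00516 with run 1 alone and from −0.0258 to 0.00432. None of these values was called in any setting. The number of lower cell cycle genes stayed between 22 and 26. Lower mer8 genes were not counted again in these settings, only for other choices of genes. Sites taken from each gene's canonical 3′-UTR gave 10 lower of 27 tested, a different gene set from the 14 of 39 for the longest 3′-UTR. Requiring a mean of at least 1 CPM left 14 of 39. NRF2 targets had 6 lower without the filter against 3. Of the named genes, 20 lost their call in some setting, 12 of them in 1 or 2 of the 15 settings, with Epcam (12), Nfe2l2 (9), Pfkl (9), Asgr1 (8), Fah (7), Zbtb10 (7), Slco1a1 (6) and Eif2ak2 (4) in more.

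With the replicate number as a block, 1661 genes were called at 50 nM, 1386 at 10 nM and 141 at 1 nM, 8 NRF2 targets were lower, and Hao1 differed by 0.23. Same-numbered libraries correlated by −0.04 to 0.13 at 50 nM and not every library best with its own number, so the numbers were not taken to pair the samples. At 3623954 to 5691251 reads per library, low genes such as Hao1 with siRNA (2 to 19 reads) carry wide intervals.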
